A study of Homo sapiens with 24 samples.

Results

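The polysomal-to-total RNA ratio of each gene was compared between H460 cells, which derive from a human large cell carcinoma of the lung, and A549 cells, which derive from a human lung adenocarcinoma, both transfected with the control siRNA called siNT. The 12 siNT libraries of the 24 in the series were used, and they form 4 groups of 3, namely H460 polysomal RNA, H460 total RNA, A549 polysomal RNA and A549 total RNA. The labels give the siNT cells as wild type, and every group, siNT or siRIC, had been transfected, so no untransfected cells enter the comparison. The other 12 libraries came from the same lines after an siRNA against RICTOR, called siRIC, and served here only as separate libraries in which to look at the same difference between lines. Library names carry the numbers 4, 6 and 7 in H460 and 3, 4 and 6 in A549. A polysomal and a total library of the same line and number are called a pair, and each log2 ratio was taken within a pair. Whether the pairs of a line are separate cultures is not stated in the labels, and p-values therefore cover only the variation among these libraries, part or all of which may be technical. Each tumour type is represented by 1 established line, so a difference between H460 and A549 is a difference between these lines.

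Polysomes are mRNAs carrying several ribosomes, and the ratio of an mRNA in the polysomal fraction to the same mRNA in total RNA is used as a relative measure of how much of it is being translated. A large class of mRNAs, those of ribosomal proteins and many translation factors, begins with a C and a run of pyrimidines at the very 5′ end, the terminal oligopyrimidine or TOP motif. Loading of TOP mRNAs onto polysomes is governed by mTORC1 and the cap-binding repressor LARP1, while RICTOR, the target of siRIC, defines the other mTOR complex, mTORC2. RNA sequencing gives shares within a library, so a line that held more or less of all its mRNA on polysomes would show no difference here, and a ratio above or below 0 on the log2 scale is relative to the bulk of genes in that library. In these bulk libraries fewer cells of a kind and less RNA per cell cannot be told apart.

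The siNT libraries held 19087204 to 26550160 estimated counts each. The share of counts from mitochondrially encoded genes was 2.31% to 4.18% in polysomal and 13.5% to 17.7% in total RNA. The fixed line markers went with the labels only in part. CDH1, epithelial cadherin, had no count in any H460 siNT library, while in A549 it reached 95, 85.8 and 115 counts per 1e6 (CPM) in polysomal and 96.5, 87.4 and 175 CPM in total RNA of pairs 3, 4 and 6. ALDH1A1, a retinal dehydrogenase listed for A549, was at 37.5, 40.2 and 42.2 CPM in H460 and 4547, 3742 and 4905 CPM in A549 total RNA, and NES, the intermediate filament nestin listed for H460, at 18.7, 30.3 and 17.3 CPM in H460 and 1.13, 0.893 and 0.981 CPM in A549 total RNA. VIM, also listed for H460, was higher in H460 total RNA. Against their lists, AKR1C1 and ALDH3A1, listed for A549, were higher in H460 total RNA, and SOX2 and CDH2, listed for H460, were lower there. KRT8 and KRT18, which are on both lists, were lower in H460 as well. From here to the end of the paragraph, CPM are of a library's whole count, without the scaling between libraries used for CDH1, ALDH1A1 and NES. In total RNA KRT8 was at 877 to 941 CPM in H460 and 3970 to 5070 CPM in A549. KRT18 was at 626 to 658 and 3900 to 5010 CPM. The 6 H460 markers, KRT8 and KRT18 among them, summed to 2970 to 3410 CPM in H460 and 8760 to 11000 CPM in A549 total RNA. The 12 A549 markers summed to 3470 to 4040 CPM in H460 and 14700 to 19100 CPM in A549 total RNA. AKR1B10, EPCAM, MUC5B and MUC5AC, listed for A549, were also higher in A549 total RNA. NKX2-1 reached at most 0.154 CPM and SFTPB had no count in total RNA of either line. Of 5 fibroblast markers, DCN, LUM and PDGFRB were higher in H460 total RNA, COL1A1 was higher in A549 and COL1A2 had no count in total RNA of either line. Their summed level was 59.2 to 75 CPM in H460 total RNA and 7.04 to 11.3 CPM in A549 total RNA, most of it LUM in H460, and its part in the results was not tested. The summed level of 5 blood and 3 endothelial markers was at most 0.304 CPM in any siNT library. The polysomal library of H460 pair 7 stood apart from those of pairs 4 and 6, and some results are given with and without it.

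In both lines the same classes of RNA were on and off polysomes. Mitochondrially encoded mRNAs, which are translated by ribosomes inside the organelle, had a median log2 ratio of −2.37 in H460 and −3.22 in A549, and all 13 were called lower in polysomal than in total RNA in each line. Nuclear noncoding RNAs had medians of −0.99 in H460 and −1.30 in A549, with 10 of 16 called lower in H460 and 13 in A549. MEG3 is among the 16, and it had no count in any H460 siNT library, so it could not be called there. Genes of the proteasome, the cell's main protease for ubiquitin-tagged proteins, had medians of 1.17 in H460 and 0.89 in A549, with 29 of 31 called higher in polysomal RNA of H460 and 27 in that of A549. Nuclear genes of respiratory complex I had 1.04 in H460 and 0.64 in A549, with 32 of 37 called higher in H460 and 23 in A549, and mitochondrial ribosomal proteins had 0.95 in H460 and 0.66 in A549, with 60 of 76 called higher in H460 and 54 in A549. Glycolytic genes had 0.69 in H460 and 0.86 in A549 and 12 of 20 called higher in each.

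By edgeR's quasi-likelihood test with Benjamini-Hochberg adjustment over 15853 genes, 2363 genes were higher (14.9% of genes tested) and 2031 lower (12.8%) in polysomal RNA of H460, and 1987 were higher (12.5%) and 1892 lower (11.9%) in that of A549. Of these, 1551 were higher and 1252 lower in both lines and 0 were called in opposite directions. The shared calls make up 63.8% of the H460 calls and 72.3% of the A549 calls. Without the H460 polysomal library of pair 7 the number of genes called in H460 was 7211, against 4394 with it, and that called in A549 was 6488, against 3879, since both lines share 1 estimate of the spread.

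**Figure D1:**
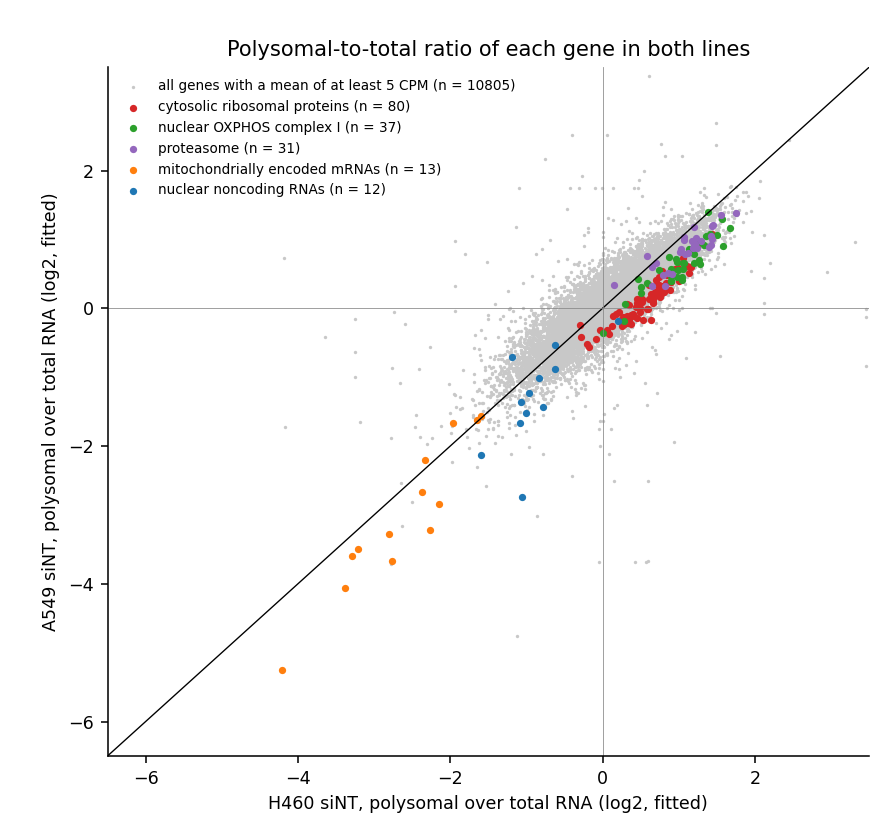
Log2 ratio of polysomal to total RNA of each gene averaging 5 CPM or more, with H460 on the horizontal and A549 on the vertical axis, both from the fit to siNT libraries; the line marks equal ratios, and 16 of 10805 genes lie outside the axes. Mitochondrially encoded mRNAs lie at the lower left in both lines, and cytosolic ribosomal protein genes lie below the line of equal ratios, with a median of 0.56 in H460 and 0.10 in A549.

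The 2 lines differ widely in which mRNAs they hold, and these differences were carried into polysomes. In total RNA 8760 genes (55.3%) differed between H460 and A549, 4212 higher and 4548 lower in H460, and in polysomal RNA 9199 genes (58%) differed, 4555 higher and 4644 lower. Of these, 7705 were called in the same direction in both fractions, which is 88.0% of the calls in total RNA and 83.8% of those in polysomal RNA, and 5 were called in opposite directions. The genes with the largest difference in total RNA include CXCL8, which encodes the neutrophil attractant interleukin 8. It was at 802, 639 and 1165 CPM in H460 and 2.5, 1.68 and 1.96 CPM in A549 total RNA, a difference of 8.73 ± 0.47 in total RNA and 9.55 ± 0.48 in polysomal RNA on the log2 scale. Its log2 ratios were 0.25, 0.31 and 1.03 in H460 and −0.30, −0.18 and 0.025 in A549 pairs, without overlap, and the difference of the ratio was 0.82 ± 0.52, which did not pass the test.

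EFEMP1, an extracellular matrix protein of the fibulin family, differed by 8.30 ± 0.33 in total RNA and by 8.40 ± 0.33 in polysomal RNA, with ratios that overlapped between the lines. At the other end, ALDH1A1 differed by −6.78 ± 0.24 in total and −6.70 ± 0.24 in polysomal RNA, and PEG10, a domesticated retrotransposon gene, by −6.96 ± 0.24 and −7.27 ± 0.25. For both, the log2 ratios of the lines overlapped. KRT7, a keratin of simple epithelia, was at 10.2, 10.6 and 8.05 CPM in H460 and 1773, 1752 and 1729 CPM in A549 total RNA. Its log2 ratios of 0.65, −0.11 and −0.50 in H460 lay below those of 1.17, 1.47 and 1.21 in A549, a difference of −1.16 ± 0.36 that did not pass the test, and its level in H460 polysomal RNA was 16, 9.83 and 5.69 CPM. TGM2, a transglutaminase, differed by −6.56 ± 0.35 in total and −7.09 ± 0.35 in polysomal RNA.

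Among the 711 genes with a called difference of more than 3 log2 units in total RNA and an average of 5 CPM or more, 710 had the same sign in polysomal RNA. The 381 that were higher in H460 had a median difference of 5.22 in total and 5.04 in polysomal RNA, and the 330 that were lower had medians of −5.34 and −5.47. These comparisons share their libraries with the test of the ratio. Chromosome medians of the total RNA difference ran from −0.47 on chromosome 8 to 0.41 on chromosome 9, and polysomal RNA had −0.44 and 0.43 on the same chromosomes. Medians of the ratio difference ran from −0.081 on chromosome 19 to 0.085 on chromosome 18.

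**Figure D2:**
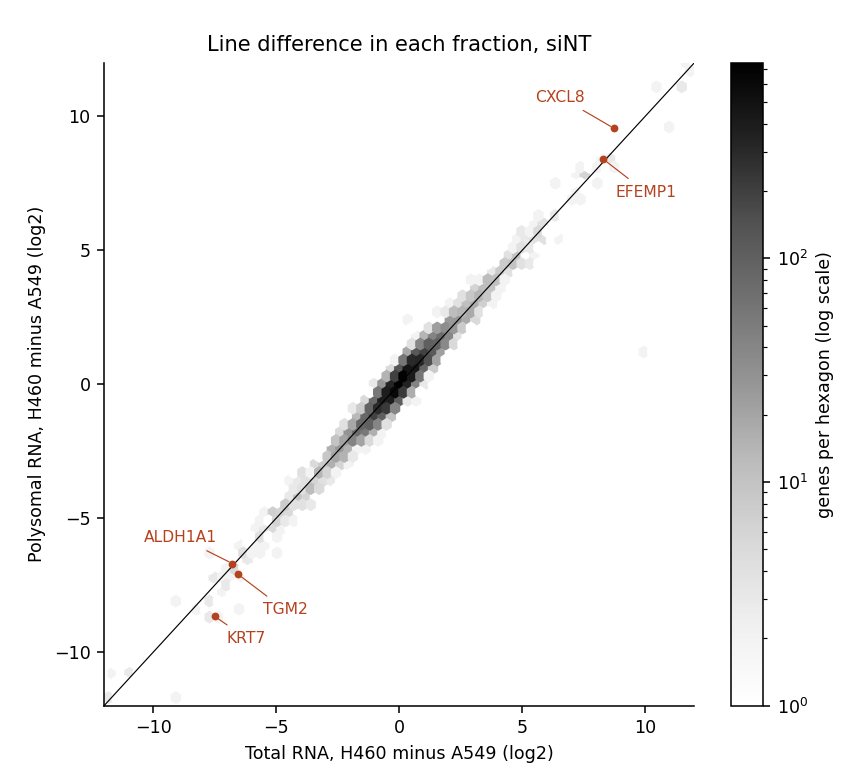
Log2 difference of H460 minus A549 for each gene averaging 5 CPM or more, in total RNA on the horizontal axis and in polysomal RNA on the vertical axis, with grey shade for the number of genes on a log scale; 65 of 10805 genes lie outside the axes. The named genes with the largest differences lie near the line of equal differences, KRT7 somewhat below it at −7.51 ± 0.33 in total and −8.66 ± 0.35 in polysomal RNA.

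Gene by gene, the test of the ratio called a difference between the lines for 1 gene. This was the interaction of line and fraction, the difference of the log2 ratios of H460 and A549. At an adjusted p under 0.05 it called 0 genes higher (0% of 15853) and 1 gene lower (0.00631%) in H460. An unadjusted p under 0.05 was found for 663 genes (4.18%), a share below that threshold itself. The called gene was HNRNPUL2-BSCL2, and no other gene had an adjusted p below 0.651. DESeq2 called 3 genes higher and 7 lower, a blocked fit that kept polysomal and total libraries of a pair together called 0 and 3, and limma on the 6 paired log2 ratios called 0 and 0, with 1187 genes at an unadjusted p under 0.05. The median difference over all genes was 0.0053. Over the 10805 genes averaging 5 CPM or more, the standard error (SE) of the difference had a median of 0.305 log2 units, with 10th and 90th percentiles of 0.237 and 0.406. The 95% interval of the difference lay within 1 log2 unit of 0 in 7685 of these genes (71.1%), and in 8014 (50.6%) of all genes tested.

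HNRNPUL2-BSCL2 (ENSG00000234857, chromosome 11, 62690262 to 62727384 in the RefSeq annotation of GRCh38) is a read-through transcript that joins HNRNPUL2, a nuclear RNA-binding protein gene, to BSCL2, the gene of the lipid droplet protein seipin. It had 0 estimated counts in all 3 H460 polysomal libraries and 8.84, 14 and 8.01 CPM in H460 total RNA of pairs 4, 6 and 7. In A549 it was at 33.4, 48.1 and 22.7 CPM in polysomal and 51, 60.5 and 65.4 CPM in total RNA. Set at 3 counts in each H460 polysomal library, its ratio was at least 36.1-fold lower in H460 than in A549 (adjusted p = 0.000489, edgeR's quasi-likelihood test). In siRIC libraries, scaled over all 24 libraries, it was at 0, 2.78 and 0 CPM in H460 polysomal RNA of pairs 4, 6 and 7, and at 12.8, 35.7 and 43.2 CPM in A549 polysomal RNA of pairs 3, 4 and 6.

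The read-through gene shares its exons with both neighbours, so how its reads were divided is uncertain. In the 3 H460 polysomal libraries with no count for it, the neighbours had whole numbers of estimated counts, 2484, 2816 and 1740 for BSCL2 and 607, 672 and 817 for HNRNPUL2, while in the other siNT libraries both had fractional ones, such as 1348.46 and 1180.12 in H460 total RNA of pair 4. The neighbours' own ratios did not pass the test. The difference was 0.015 ± 0.29 for BSCL2, with overlapping ratios of 0.96, 1.04 and 0.24 in H460 and 0.48, 0.66 and 1.17 in A549, and −0.53 ± 0.25 for HNRNPUL2, with overlapping ratios of −0.88, −0.31 and −0.32 in H460 and 0.30, 0.12 and −0.34 in A549. The call was lost when all 24 libraries were fitted together (adjusted p = 0.507) and with limma on paired ratios (adjusted p = 0.178).

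Cytosolic ribosomal protein genes lay on one side as a group, although none was called. All 80 were measured, and 79 had a higher ratio in H460 than in A549, with a median difference of 0.45 log2 units against 0.0053 over all genes. Over all genes tested, 50.6% had a higher ratio in H460. That median was 0.25 without the H460 polysomal library of pair 4. The list median of the log2 ratio was 0.74, 0.38 and 0.52 in H460 pairs 4, 6 and 7, and 0.033, 0.041 and 0.20 in A549 pairs 3, 4 and 6. Each H460 pair lay above each A549 pair. Gene by gene, all 3 H460 ratios lay above all 3 A549 ratios in 45 members (56.3%) and below them in 0, where over all genes tested this was so in 8.05% and 6.18%. Without H460 pair 7 the count above was 65 of 80, beside 17.5% of all genes above and 21.4% below. In H460 45 of the 80 were called higher in polysomal than in total RNA, where 14.9% of all genes tested were. In A549 9 of the 80 were, near the share of 12.5% over all genes. The difference between the lines was called in none of the 80.

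In total RNA the same list had a median line difference of 0.37, and in polysomal RNA 0.80. Of the 268 genes averaging 500 CPM or more, 70 were ribosomal proteins with a median difference of the ratio of 0.46, and the 198 others had a median of 0.12. The part of level in the list's difference was not tested. These genes have many processed pseudogenes with which reads can be shared, and the 250 pseudogenes tested had a median difference of 0.23.

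RPL11 (ENSG00000142676, chromosome 1, 23691779 to 23696835), a protein of the large subunit that also binds MDM2, had log2 ratios of 0.67, 0.26 and 0.62 in H460 and −0.18, −0.23 and −0.10 in A549. Every H460 ratio was above 0 and every A549 ratio below it, and the difference was 0.71 ± 0.25 (95% interval 0.19 to 1.23). In CPM it was at 1226, 835 and 1046 in H460 polysomal RNA and 769, 696 and 682 in H460 total RNA, and at 473, 477 and 399 in A549 polysomal and 535, 562 and 428 in A549 total RNA. RPS20, a protein of the small subunit, had 0.91, 0.37 and 0.51 in H460 and −0.15, −0.32 and −0.0066 in A549, with the highest difference of the list at 0.80 ± 0.27. RPS27A, which is made as a fusion with ubiquitin, had 1.06, 0.68 and 0.87 in H460 and 0.25, 0.17 and 0.38 in A549, a difference of 0.62 ± 0.23 with all 6 ratios above 0. RPLP0, the scaffold of the ribosomal stalk, was the single member below 0. Its ratios of −0.055, −0.29 and −0.65 in H460 and −0.48, −0.27 and 0.052 in A549 overlapped, and its difference was −0.057 ± 0.27. RPS2 and RPL15 came next from the bottom, at 0.13 ± 0.30 and 0.25 ± 0.22.

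**Figure D3:**
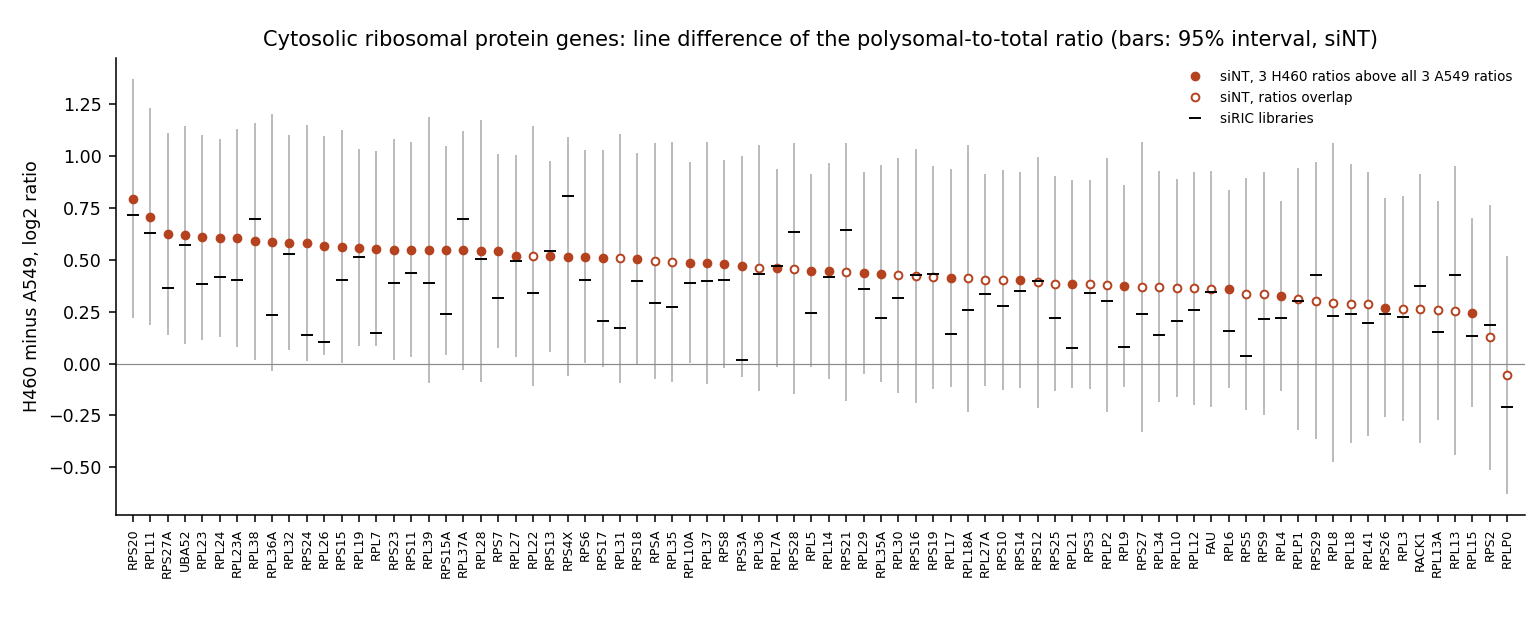
Difference of the log2 polysomal-to-total ratio, H460 minus A549, for each of the 80 cytosolic ribosomal protein genes in order of size; circles are siNT values with their 95% intervals, filled where all 3 H460 ratios lay above all 3 A549 ratios, and dashes are the values in siRIC libraries. The circles run from 0.80 for RPS20 to −0.057 for RPLP0, and many intervals cross 0.

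The first 25 transcribed bases, from the RefSeq start of each gene on GRCh38.p14, are shown because this is where the TOP motif lies. The 5 members with the largest difference and the 3 with the smallest among those that begin with a C followed directly by 4 or more C or T are printed 5′ to 3′, with the leading pyrimidine run in capitals, and RPL11 and RPS27A, whose RefSeq starts hold no such run, follow them.
RPL24 (chr3:101686694-101686718, minus strand): CTTTCTTTTCgccatcttttgtctt
RPL38 (chr17:74203678-74203702, plus strand): CTTTTTCgtccttttccccggttgc
RPL36A (chrX:101391011-101391035, plus strand): CTTTCTTTCCgcgccgatagcgctc
RPS24 (chr10:78033863-78033887, plus strand): CTCTTTTCCTCCTTggctgtctgaa
RPL26 (chr17:8383169-8383193, minus strand): CTCTTCCCTTTTgcggccatcaccg
RACK1 (chr5:181243882-181243906, minus strand): CTCTCTTTCactgcaaggcggcggc
RPL13A (chr19:49487608-49487632, plus strand): CTTTTCCaagcggctgccgaagatg
RPLP0 (chr12:120201087-120201111, minus strand): CCTTCTCTCgccaggcgtcctcgtg
RPL11 (chr1:23691779-23691803, plus strand): aaggccctcggccggaagctccgct
RPS27A (chr2:55231903-55231927, plus strand): aagacccagactcttccctaggctg

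The differences of the first 5 were 0.61, 0.59, 0.58, 0.58 and 0.57 in the order printed, and those of RACK1, RPL13A and RPLP0 were 0.26, 0.26 and −0.057. A C followed by at least 4 pyrimidines, searched only at the start and on the transcribed strand, was present in 44 of the 64 ribosomal protein genes with a start in the table (68.8%) and in 4.07% of all 35116 RefSeq starts. The 44 genes with it and the 20 without it had the same median difference, 0.44 and 0.44, and all 3 H460 ratios lay above all 3 A549 ratios in 43.2% of the genes with it and in 75% of those without it. Among other genes tested, the 576 with such a start had a median difference of 0.053 and the 10966 without it −0.00021. No match says only that these letters are not in this window.

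Translation factors whose mRNAs are known TOP mRNAs lay on the same side with smaller values. All 17 had a difference above 0, with a median of 0.26 and none called. The list median was 0.29, 0.051 and 0.23 in H460 pairs 4, 6 and 7 and −0.078, 0.10 and −0.11 in A549 pairs 3, 4 and 6, and H460 pair 6 lay below A549 pair 4. EIF3L, a subunit of the initiation factor eIF3, had 0.05, 0.051 and 0.12 in H460 and −0.48, −0.17 and −0.48 in A549, without overlap and with a difference of 0.44 ± 0.23. EEF1B2, an exchange factor of the elongation factor eEF1A, had 0.82, 0.40 and 0.65 in H460 and 0.10, 0.19 and 0.37 in A549 and a difference of 0.43 ± 0.24. EIF3E, another eIF3 subunit, was the lowest at 0.011 ± 0.22. Of 17 members, 4 (23.5%) had all H460 ratios above all A549 ratios, beside 8.05% of all genes tested. All 17 had a 95% interval within 1 log2 unit of 0.

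Other initiation and elongation factors had a median of 0.13, with 24 of 36 above 0. That median was 0.048 without the A549 polysomal library of pair 6 and 0.23 without that of pair 4. EIF5B (ENSG00000158417, chromosome 2, 99337389 to 99401326), the GTPase that joins the ribosomal subunits, had the largest difference of the list. Its log2 ratios were 1.08, 0.55 and 0.99 in H460 and 0.15, 0.20 and −0.22 in A549, without overlap, and the difference was 0.83 ± 0.23. It did not pass edgeR's test, while DESeq2 gave an adjusted p of 0.0493. In total RNA it was at 184, 235 and 203 CPM in H460 and 117, 131 and 147 CPM in A549.

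The machinery of mTOR and of TOP control showed no difference in the ratio that passed the test, in either direction. The 19 genes of both mTOR complexes and their TOP regulators had a median of 0.00085, whose sign changed in 20 of 28 other settings. Of these genes, 10 were above 0. All H460 ratios lay above all A549 ratios in 0 of 19 and below them in 2 (10.5%). Over all genes tested these shares were 8.05% and 6.18%. RICTOR had log2 ratios of −0.64, −0.90 and 0.45 in H460 and −0.28, −0.34 and −0.30 in A549, a difference of 0.056 ± 0.37 (95% interval −0.73 to 0.84). The H460 value of pair 7 was the highest of all 6 and those of pairs 4 and 6 the lowest. MTOR, the kinase of both complexes, had a difference of 0.19 ± 0.26 (95% interval −0.35 to 0.74). LARP1, the repressor of TOP mRNAs, had −0.25 ± 0.26 (95% interval −0.79 to 0.30). EIF4E, the cap-binding factor, had −0.21 ± 0.26 and EIF4EBP1, its inhibitor, −0.066 ± 0.34. PDCD4, an inhibitor of the helicase eIF4A, had 0.45 ± 0.34, with ratios of 0.46, 0.25 and 0.88 in H460 and 0.39, 0.20 and −0.18 in A549 that overlapped. AKT2, a kinase activated by mTORC2, had −0.30, −0.13 and −0.60 in H460 and −0.077, 0.21 and 0.26 in A549, with a difference of −0.46 ± 0.27.

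Nuclear genes of oxidative phosphorylation lay nearly as far to the H460 side as ribosomal proteins. Of 37 genes of complex I, which oxidises NADH, 36 were above 0, with a median of 0.41. In 14 (37.8%) all H460 ratios lay above all A549 ratios. Over all genes tested, 50.6% were above 0 and 8.05% had all H460 ratios above all A549 ratios. The median was 0.23 without the H460 polysomal library of pair 4. By pair, the list median of the ratio was 1.24, 0.93 and 0.80 in H460 and 0.56, 0.52 and 0.75 in A549 pairs. NDUFA12, an accessory subunit, had 1.08, 0.98 and 1.05 in H460 and 0.56, 0.23 and 0.40 in A549, a difference of 0.64 ± 0.24. In CPM it was at 148, 122 and 128 in H460 polysomal and 69.8, 61.6 and 61.5 in H460 total RNA, and at 79.6, 60.7 and 60.6 in A549 polysomal and 53.9, 51.7 and 46 in A549 total RNA. NDUFS5 was the highest at 0.68 ± 0.26, and NDUFV1, which carries the NADH binding site, the lowest at −0.025 ± 0.35.

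Complexes II to V had a median of 0.39, with 36 of 39 above 0. In 13 (33.3%) the ratios lay without overlap on the H460 side, beside 8.05% of all genes tested. Without the same library the median was 0.24. ATP5PD, a subunit of the ATP synthase stalk, had 1.27, 1.07 and 1.15 in H460 and 0.58, 0.49 and 0.58 in A549, a difference of 0.61 ± 0.22, and COX4I1, a subunit of cytochrome c oxidase, had 1.51, 1.31 and 1.07 in H460 and 0.72, 0.78 and 0.91 in A549, a difference of 0.51 ± 0.21. SDHD, an anchor subunit of complex II, was the lowest at −0.14 ± 0.22. No member of either list was called.

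Mitochondrial ribosomal proteins had a median of 0.25, with 64 of 76 above 0. Without A549 pair 6 it was 0.39. In 29 (38.2%) all H460 ratios lay above all A549 ratios, and in 0 below, beside 8.05% and 6.18% of all genes tested. The list median was 0.97, 0.99 and 0.85 in H460 and 0.61, 0.63 and 0.73 in A549 pairs, so the lines did not overlap. MRPL22, a protein of the large subunit, had 1.45, 1.32 and 1.42 in H460 and 0.76, 0.63 and 0.71 in A549, both within narrow ranges, and a difference of 0.70 ± 0.22 (95% interval 0.23 to 1.16). Its level was 115, 104 and 101 CPM in H460 polysomal and 42.3, 41.6 and 37.7 CPM in H460 total RNA, and 62.3, 56.5 and 52 CPM in A549 polysomal and 36.7, 36.5 and 31.7 CPM in A549 total RNA. MRPL49 was the lowest at −0.39 ± 0.34. The list's median line difference in total RNA was 0.09.

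For proteasome genes the median was 0.29, and 29 of 31 lay above 0. Without overlap on the H460 side lay 14 (45.2%), beside 8.05% of all genes tested. PSMB1, a subunit of the catalytic core, had 1.48, 1.46 and 1.26 in H460 and 0.83, 0.93 and 0.91 in A549, a difference of 0.51 ± 0.22, and PSMA5, of the outer ring of the core, had 1.41, 1.39 and 1.49 in H460 and 0.90, 0.95 and 0.93 in A549, a difference of 0.50 ± 0.21. PSMD11, of the regulatory lid, was the lowest at −0.19 ± 0.23. The list's median line difference was 0.008 in total RNA and 0.32 in polysomal RNA. In 29 of the 31 genes the 95% interval lay within 1 log2 unit of 0.

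**Figure D4:**
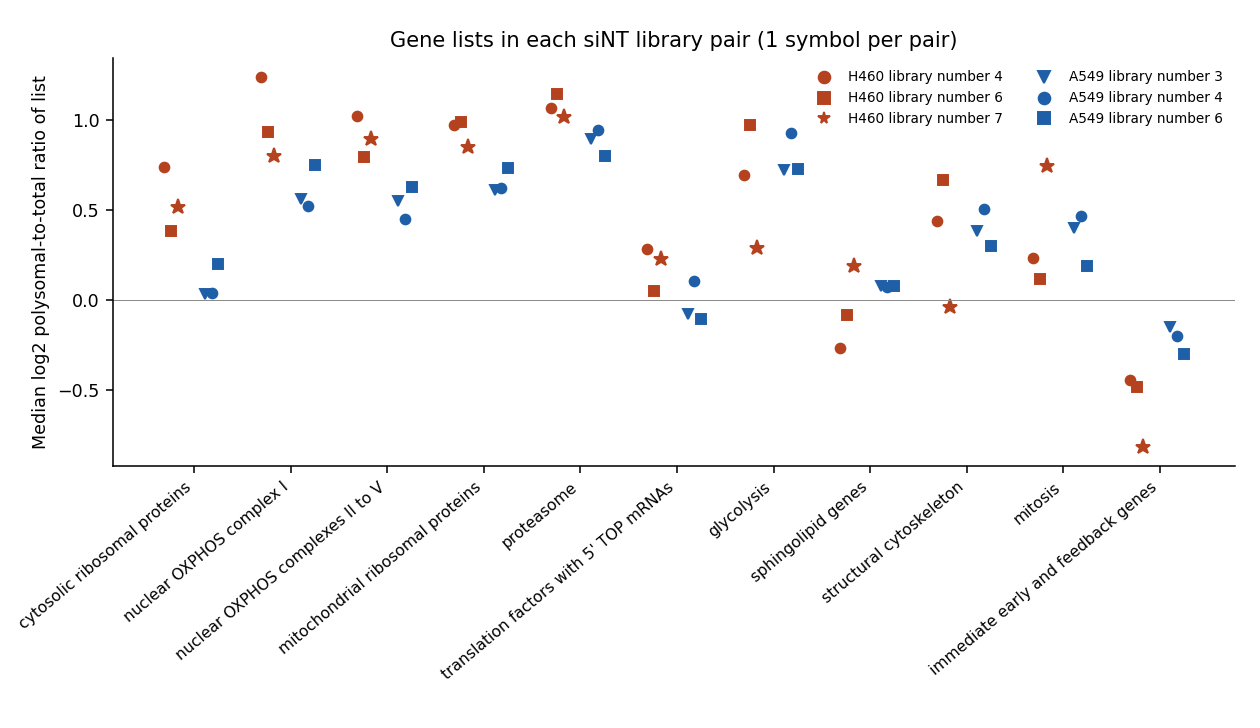
Median log2 polysomal-to-total ratio of 11 gene lists in each siNT library pair, H460 in red to the left and A549 in blue to the right of each list, with 1 symbol per pair and the library number by shape. For ribosomal proteins the H460 pairs lie at 0.74, 0.38 and 0.52 and the A549 pairs at 0.033, 0.041 and 0.20; H460 pair 7, the star, leaves the other H460 pairs for glycolysis, cytoskeleton and mitosis.

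Genes of the secretory pathway and of protein synthesis outside the ribosome gave mixed pictures. Endoplasmic reticulum chaperones and unfolded protein response genes lay at a median of 0.13, with 24 of 39 above 0, beside 50.6% of all genes tested. Without overlap on the H460 side lay 10 (25.6%), beside 8.05% of all genes tested. Without the H460 polysomal library of pair 7 that median was 0.018. MANF, a secreted protein induced by endoplasmic reticulum stress, had 1.14, 0.74 and 1.09 in H460 and 0.36, 0.071 and 0.37 in A549 and a difference of 0.71 ± 0.24. HYOU1, a chaperone of the same compartment, had −0.61, −0.094 and −0.92 in H460 and 0.14, 0.24 and −0.15 in A549, which overlapped, and a difference of −0.55 ± 0.32 on the other side. Aminoacyl-tRNA synthetases had a median of 0.11, with 20 of 23 above 0, among them RARS1, the arginine enzyme, with 1.33, 1.21 and 1.43 in H460 and 0.82, 0.84 and 0.74 in A549 and a difference of 0.52 ± 0.22. The median of this list was 0.032 without the A549 polysomal library of pair 6 and 0.24 without that of pair 4. Ribosome biogenesis genes lay at a median of 0.091, 34 of 47 above 0, which was 0.019 without the A549 polysomal library of pair 6 and 0.24 without that of pair 4. NOP56, a core protein of box C/D snoRNPs whose gene also hosts snoRNAs, was the highest at 0.77 ± 0.28, with 0.16, −0.29 and 0.013 in H460 and −0.67, −0.89 and −0.88 in A549.

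Cytosolic chaperonins and heat shock proteins had a median of 0.19 with 19 of 24 above 0, and of 0.065 without the H460 polysomal library of pair 6. CCT2, a subunit of the chaperonin that folds actin and tubulin, had 0.34 ± 0.22, and DNAJB1, a cochaperone of HSP70, had −0.33 ± 0.31. Splicing factors had a median of 0.07, with 25 of 46 above 0, and of −0.048 without the A549 polysomal library of pair 6. SNRPD3, a core protein of the spliceosomal snRNPs, had 0.59, 0.62 and 0.70 in H460 and 0.20, −0.11 and −0.34 in A549 and a difference of 0.71 ± 0.23. U2AF1 was the highest at 1.82 ± 1.00, but its ratios of 2.82, 0.22 and 0.51 in H460 and −1.25, 1.16 and −1.15 in A549 overlapped. The gene has a near-identical copy, so its level is uncertain, and edgeR with no filter on low counts called it at an adjusted p of 4.6e-07.

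Immediate early and feedback genes, which are switched on quickly by growth factors, lay on the A549 side. Of 31 measured, 4 were above 0, and the median was −0.29. In 6 (19.4%) all H460 ratios lay below all A549 ratios, with 0 above. Over all genes tested these shares were 6.18% below and 8.05% above. The list median was −0.45, −0.48 and −0.82 in H460 and −0.15, −0.20 and −0.30 in A549 pairs. JUN, a subunit of AP-1, had −0.67, −0.77 and −1.07 in H460 and 0.013, 0.069 and −0.37 in A549 and a difference of −0.73 ± 0.48, at levels of 8.49, 14.2 and 5.85 CPM in H460 and 24.1, 28.2 and 24.7 CPM in A549 total RNA. ZFP36L1, a protein that speeds decay of AU-rich mRNAs, had −1.64, −1.34 and −1.39 in H460 and −0.62, −0.70 and −1.32 in A549 and a difference of −0.60 ± 0.24. DUSP6, a phosphatase of ERK, had −0.64 ± 0.34 with overlapping ratios, and SPRY1, an inhibitor of receptor tyrosine kinase signalling, was the highest at 0.72 ± 0.52. No member was called. The median was −0.19 without the H460 polysomal library of pair 7. In siRIC libraries the list median was −0.10, with 6 of 31 above 0, 2 without overlap above and 2 below, of which 1 was also below in siNT libraries. Over all genes the siRIC shares without overlap were 10.3% above and 3.49% below.

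Targets of ATF4, the transcription factor of the integrated stress response, had a median of −0.11, with 9 of 26 above 0. That median was −0.24 without the H460 polysomal library of pair 7 and −0.018 without its total library. SESN2, a leucine sensor upstream of mTORC1, had −0.054, 0.09 and −0.45 in H460 and 0.29, 0.60 and 0.63 in A549, without overlap, and a difference of −0.69 ± 0.36. SLC7A5, an amino acid transporter, had −0.59 ± 0.32 and DDIT3, the transcription factor CHOP, 0.62 ± 0.56, both with overlapping ratios. Cholesterol synthesis had −0.056 with 11 of 24 above 0. LSS, lanosterol synthase, was the lowest at −0.57 ± 0.31, and STARD4, a sterol carrier, the highest at 0.49 ± 0.54. Targets of p53 had −0.066 with 11 of 27 above 0, which was −0.22 without the H460 polysomal library of pair 7 and 0.10 without A549 pair 6. Members ran from −0.51 ± 0.27 for the exonuclease AEN to 0.92 ± 0.36 for the stress cytokine GDF15.

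Lists tied to the study's title lay near the median of all genes. Of 38 sphingolipid genes measured, 17 were above 0 and the median was −0.032. Counts without overlap were 1 above (2.63%) and 3 below (7.89%), where over all genes tested the shares were 8.05% and 6.18%. SGPL1, the lyase that breaks down sphingosine 1-phosphate, had −0.87, −0.64 and −0.62 in H460 and −0.25, −0.10 and −0.25 in A549 and a difference of −0.50 ± 0.25. ORMDL2, a brake on serine palmitoyltransferase, had 0.98, 0.73 and 0.78 in H460 and 0.22, 0.36 and 0.39 in A549 and a difference of 0.49 ± 0.23. SPTLC3, a subunit of serine palmitoyltransferase, was the lowest at −1.44 ± 0.66, and its total RNA differed by 6.70 ± 0.46 between lines. In total RNA the list's median line difference was 0.58, and in polysomal RNA it was 0.64.

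Of 28 genes of the HIF system and its targets, 12 were above 0 and the median was −0.035. Without overlap 1 lay above (3.57%) and 2 below (7.14%), beside 8.05% and 6.18% of all genes tested. NDRG1, a hypoxia-induced gene, had −0.27, 0.19 and −0.75 in H460 and 0.38, 0.60 and 0.25 in A549 and a difference of −0.65 ± 0.33, and DDIT4, an inhibitor of mTORC1, had −0.55 ± 0.28. ARNT2, a paralog of ARNT, had 1.44, 1.28 and −1.15 in H460 and −0.45, −0.16 and −0.57 in A549, and its high difference of 1.29 ± 0.68 rests on pairs 4 and 6. Other lists with medians near 0 were glycolysis (−0.0084, 8 of 20 above 0), NRF2 targets (−0.035, 16 of 35), lysosome (−0.032, 15 of 36), fatty acid synthesis (0.021, 10 of 18), integrins and extracellular matrix (−0.0092, 15 of 30), DNA replication (0.037, 22 of 39), selenoproteins (0.03, 11 of 21), structural cytoskeleton (−0.023, 17 of 38) and zinc finger genes (−0.045, 191 of 418). Without the H460 polysomal library of pair 7 the median was 0.11 for glycolysis, −0.19 for fatty acid synthesis, 0.16 for structural cytoskeleton, −0.14 for sphingolipid genes, −0.11 for integrins and matrix, 0.069 for NRF2 targets, 0.16 for selenoproteins and −0.12 for zinc finger genes.

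Within these lists some genes stood apart from the median. SLC2A1, the glucose transporter GLUT1, had −0.0045, 0.44 and 0.034 in H460 and 0.68, 0.76 and 0.46 in A549, without overlap, and a difference of −0.45 ± 0.32, while its total RNA differed by 2.61 ± 0.24. FTH1, the ferritin heavy chain, whose translation is held back by iron regulatory proteins, had low ratios in both lines, −0.73, −1.58 and −1.28 in H460 and −1.73, −2.24 and −1.52 in A549, with a difference of 0.70 ± 0.31 and 1 overlapping pair. LAMB1, a laminin chain, had 0.40, 0.21 and 0.58 in H460 and −0.29, −0.31 and −0.65 in A549 and a difference of 0.86 ± 0.33. ITGA5, the fibronectin receptor subunit, had −0.70, −0.29 and −0.78 in H460 and 0.045, 0.46 and −0.074 in A549 and a difference of −0.69 ± 0.29. SELENOK, a selenoprotein of the endoplasmic reticulum, had 1.31, 1.53 and 1.65 in H460 and 0.77, 0.43 and 0.96 in A549 and a difference of 0.79 ± 0.24. None of these passed the test.

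Among RNAs that largely stay out of cytosolic polysomes, no member was called and members lay on both sides. MALAT1 (ENSG00000251562, chromosome 11, 65497738 to 65506516), a nuclear long noncoding RNA, had log2 ratios of −1.65, −1.10 and −0.60 in H460 and −2.46, −3.09 and −2.72 in A549. Every H460 value lay above every A549 value, and the difference was 1.69 ± 0.34 (adjusted p = 0.651, edgeR's quasi-likelihood test), which did not pass. DESeq2 called it at an adjusted p of 0.00246 and edgeR with no filter on low counts at 2.69e-05, and over all settings its adjusted p ran up to 1.00. In polysomal RNA it was at 9.72, 14.7 and 21 CPM in H460 and 8.7, 5.45 and 6.53 CPM in A549, and in total RNA at 30.7, 31.6 and 31.8 CPM in H460 and 48.2, 47.1 and 43.4 CPM in A549. MEG3, another nuclear RNA, had no count in any H460 siNT library and so has no ratio there. The 15 other nuclear noncoding RNAs had a median of 0.28, with 12 above 0, 3 without overlap above and 1, MIR17HG, below. Over all genes tested 8.05% lay above and 6.18% below without overlap. With MEG3 included, the list's median was 0.34, and 0.20 without the H460 polysomal library of pair 7. Of 13 mitochondrially encoded mRNAs, 9 were above 0 with a median of 0.31. MT-ND3, a subunit of complex I, had −2.06, −2.54 and −2.22 in H460 and −3.19, −3.13 and −3.41 in A549 and a difference of 0.95 ± 0.28, while MT-CYB, of complex III, had −0.30 ± 0.31. Without the H460 polysomal library of pair 7 the median of these 13 was 0.024.

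snoRNA host transcripts had a median of 0.34, with 14 of 17 above 0. Without overlap 1 lay above and 1, SNHG4, below (5.88% each), under the shares over all genes, and the median was −0.0024 without the H460 polysomal library of pair 4. SNHG32 had −0.21, −0.77 and −0.44 in H460 and −1.02, −1.17 and −0.89 in A549 and a difference of 0.60 ± 0.34. GAS5, a host whose spliced RNA is itself a TOP transcript, had 0.14, −0.84 and 0.021 in H460 and −0.40, −0.97 and −0.54 in A549, which overlapped, and a difference of 0.48 ± 0.39. Of the 58 replication-dependent histone genes, 33 passed the filter on low counts, with a median SE of 0.789, and 3 of these had no count in 1 line. Of the 30 others, 21 were above 0. The median of the 33 was 0.24, and it was −0.024 without the same library. H2BC5 had 0.97, 0.91 and 0.88 in H460 and 0.38, −0.031 and −0.029 in A549 and a difference of 0.83 ± 0.31. For mitosis genes the median was 0.14 and 25 of 38 were above 0, led by the proliferation marker MKI67 with −0.50, −0.44 and −0.092 in H460 and −1.07, −0.97 and −1.54 in A549 and a difference of 0.90 ± 0.31. Without H460 pair 7 the list median was −0.03.

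The siRIC libraries share no library with the siNT comparison and gave values on the same side for most of these lists. Over all genes, all 3 H460 ratios lay above all 3 A549 ratios in 10.3% and below them in 3.49%. By edgeR's quasi-likelihood test 0 genes were called higher and 0 lower, with 529 of 15853 at an unadjusted p under 0.05. A fit with each pair as a block called 4 and 1. Ribosomal proteins had a median difference of 0.34, with 79 of 80 above 0 and 25 without overlap, 22 of which were also without overlap in siNT libraries. Among all 15853 genes tested, 7631 were above 0 in siRIC libraries. RPL11 had 0.63 ± 0.31, RPS20 0.72 ± 0.34 and RPLP0 −0.21 ± 0.30. Complex I had 0.40 (34 of 37 above 0), complexes II to V 0.30 (34 of 39), mitochondrial ribosomal proteins 0.16 (56 of 76), the proteasome 0.28 (25 of 31) and TOP translation factors 0.23 (15 of 17). Sphingolipid genes had −0.083 and HIF genes 0.017. The three-way interaction of line, fraction and siRNA called 0 genes, with 193 of 15853 at an unadjusted p under 0.05.

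The siRIC pairs are not fully separate measurements in H460. Deviations of the log2 ratio from the line mean correlated between siNT and siRIC pairs of the same number with r of 0.487, 0.600 and 0.751 in H460 pairs 4, 6 and 7, and of 0.063, 0.187 and −0.065 in A549 pairs 3, 4 and 6. The points are genes of shared libraries. With siNT and siRIC libraries in 1 fit, added after seeing the data, with each pair as a block and both siRNAs weighted equally, 49 genes were higher (0.309%) and 11 lower (0.0694%) in H460. This fit takes 6 pairs a line as independent. Averaging the siNT and siRIC ratios of a number first, which leaves 3 values a line, gave 10 genes higher and 7 lower with limma, and 4 of the 49 and 2 of the 11 were among them.

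Of the genes named below from the fit of 6 pairs a line, SMG1P5 was also called with 3 averaged values a line and the others were not. DYNC1H1 (ENSG00000197102, chromosome 14, 101964573 to 102056443), the heavy chain of cytoplasmic dynein, had 1.26 ± 0.16 over both siRNAs (adjusted p = 0.0061, edgeR, and 0.0996 with limma on averaged ratios) and 1.12 ± 0.30 in siNT libraries. Its siNT log2 ratios were 0.40, 0.44 and 0.084 in H460 and −0.61, −0.59 and −1.11 in A549. In siNT libraries alone it did not pass the main test (adjusted p = 0.9999, edgeR's quasi-likelihood test). It was called there by edgeR with no filter on low counts, at an adjusted p of 0.0163. That setting called 32 genes higher and 33 lower in H460. In total RNA it was at 1303, 1121 and 1418 CPM in H460 and 147, 141 and 257 CPM in A549. SMARCA4, an ATPase of SWI/SNF chromatin remodelling complexes, had 1.20 ± 0.21 (adjusted p = 0.0305, edgeR, and 0.189 with limma on averaged ratios) and 0.97 ± 0.34 in siNT libraries, with 124, 154 and 127 CPM in H460 and 10.2, 11.6 and 9.04 CPM in A549 total RNA. MDN1, an ATPase of large subunit assembly, had 1.01 ± 0.15 and 0.88 ± 0.28. NOP56 had 1.00 ± 0.15 and MKI67 0.99 ± 0.15.

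TNXB, a tenascin gene with a partial copy nearby, had 1.35 ± 0.22, and SMG1P5, a pseudogene of the kinase SMG1, had 2.37 ± 0.26. Levels of both are uncertain because reads can be shared with near-identical copies. MRPL22 (0.70 ± 0.13), MANF (0.80 ± 0.15), NDUFA12 (0.69 ± 0.13) and 4 ribosomal proteins were also among the 49, and with limma on averaged ratios the adjusted p was 0.351 for MRPL22, 0.298 for MANF and 0.351 for NDUFA12.

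On the lower side AHR, the aryl hydrocarbon receptor, had −0.78 ± 0.15 over both siRNAs (adjusted p = 0.0431, edgeR, and 0.351 with limma on averaged ratios) and −0.81 ± 0.26 in siNT libraries, with siNT ratios of −1.12, −0.74 and −0.82 in H460 and −0.03, −0.095 and −0.10 in A549. Its total RNA was at 82.3, 75.4 and 88.3 CPM in H460 and 19.9, 18.8 and 25.4 CPM in A549. NOTCH3, a Notch receptor, had −0.86 ± 0.17 and −0.83 ± 0.35, with −1.01, −0.62 and −1.22 in H460 and −0.13, 0.02 and −0.10 in A549. TM4SF20, a membrane protein, had −1.32 ± 0.18, RAVER1, a splicing coregulator, −1.12 ± 0.22 and LLGL1, a cell polarity protein, −0.82 ± 0.16. For each of these 5 genes all 3 siNT ratios of H460 lay below all 3 of A549, which was so in 6.18% of all genes tested. The 5 genes were picked from a fit that includes these siNT libraries, so this lack of overlap is no separate support. None passed the test in siNT libraries alone.

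Log2 ratios were more spread between H460 pairs than between A549 pairs. The main test was fitted to group means without pairing, so its SEs measure the spread between libraries and not that of paired ratios. The part of the spread between pairs in the low number of calls was not tested. The standard deviation of the log2 ratio over the 3 pairs of a line had a median of 0.397 in H460 and 0.160 in A549 over the 10805 better measured genes, those averaging 5 CPM or more, and it was larger in H460 for 9076 (84.0%) of them. Ratio profiles of H460 pair 7 correlated with those of pairs 4 and 6 at r of 0.560 and 0.435, while pairs 4 and 6 correlated at 0.818 and A549 pairs at 0.837 to 0.857. Between lines r was 0.703 to 0.806 without pair 7 and 0.515 to 0.612 with it. In H460 pairs 4, 6 and 7 the median ratio was 0.69, 0.98 and 0.29 for glycolysis, 0.44, 0.67 and −0.041 for structural cytoskeleton genes and 0.23, 0.11 and 0.74 for mitosis genes. The siRIC pairs of the same numbers had 0.95, 1.01 and 0.43, 0.63, 0.64 and 0.047 and 0.26, 0.19 and 0.70, so pair 7 departed in the same lists there. Mitochondrially encoded genes took 4.18% of its siNT polysomal counts, and 3.13% and 2.31% in pairs 4 and 6, and the part of this in its departure was not tested.

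**Figure D5:**
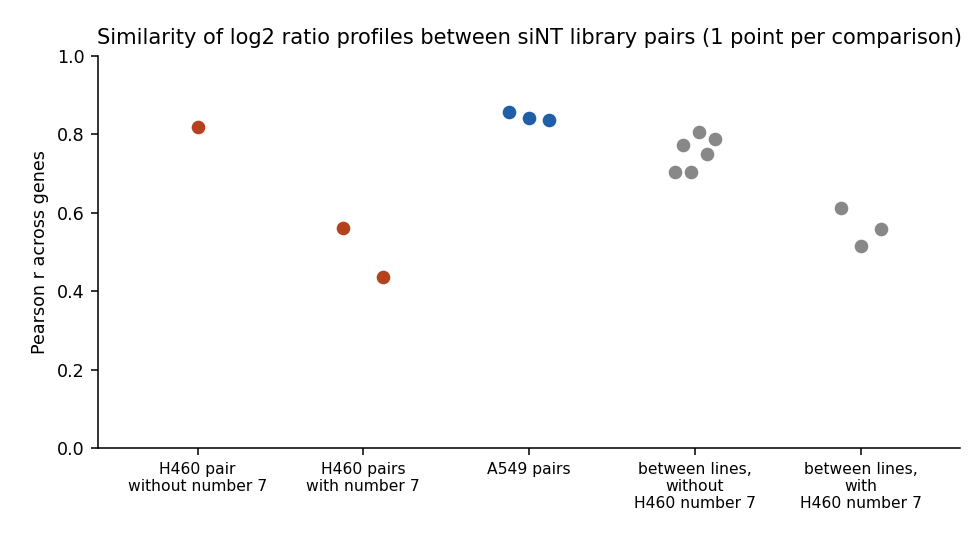
Pearson correlation across 10805 genes of the log2 polysomal-to-total ratio between siNT library pairs, with 1 point per comparison, for H460 pairs without and with pair 7, A549 pairs, and comparisons between the lines without and with H460 pair 7. Comparisons with H460 pair 7 lie at 0.435 to 0.612 and all others at 0.703 to 0.857.

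Without the H460 polysomal library of pair 7, 2584 of 16315 genes had an unadjusted p under 0.05 in the comparison of ratios, against 663 of 15853 with it, and 0 genes were called higher and 2 lower. The median difference of ribosomal proteins stayed between 0.25 and 0.59 over all 28 other settings, and that of complex I between 0.23 and 0.53. The 4 and 6 numbers occur in both lines. Taking only pairs of the same number, the list median of ribosomal proteins in H460 less that in A549 was 0.70 for number 4 and 0.18 for number 6, and that of complex I was 0.72 and 0.18. The labels do not say what these numbers stand for. They give the replicate number as a batch, and batches 1, 2 and 3 hold H460 pairs 4, 6 and 7 and A549 pairs 3, 4 and 6. Within batches 1, 2 and 3 the list median of H460 less that of A549 was 0.71, 0.34 and 0.32 for ribosomal proteins, 0.68, 0.41 and 0.050 for complex I, 0.36, 0.36 and 0.12 for mitochondrial ribosomal proteins, and 0.18, 0.20 and 0.22 for the proteasome. For TOP translation factors it was 0.36, −0.052 and 0.34, and for immediate early genes −0.30, −0.28 and −0.52.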

How the data were processed

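The authors deposited 1 table of estimated counts per gene, not normalized, named as merged salmon counts per the file headers, for 24 libraries and 60666 genes, of which 60437 matched a gene name. Per the submitters' processing notes the genome build was GRCh38 and bcl2fastq 2.20 was used. The version and annotation of the quantifier were not given. PolyA RNA is named as the molecule in the labels, but the library kit in their protocols is one for total RNA after removal of rRNA, so the RNA that was sequenced is uncertain.

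Estimated counts were rounded. In R 4.3.3, edgeR 4.0.16 (filterByExpr by group, TMM, glmQLFit, glmQLFTest) was fitted to the 12 siNT libraries as 4 group means with 8 residual degrees of freedom. The tested contrast was H460 polysomal minus total less the same in A549, with Benjamini-Hochberg adjustment over 15853 genes and a threshold of 0.05. SE is the absolute log2 difference over the square root of F. Ratios per pair are differences of log2 CPM with a prior count of 2. Intervals cover the spread between libraries only.

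The lists and their members, and the rule for named genes, were chosen with earlier results of these data known. The rule took up to 12 called genes a side with a mean of at least 5 CPM, at least 2 CPM in total RNA of each line and ratios that did not overlap, which gave 1 gene, then the 3 smallest p and the extremes of each list. The largest members of the fit over both siRNAs, the largest total RNA differences, EIF5B, MALAT1 and the neighbours of the called gene were chosen after their values were seen. Numbers pair the libraries, since in the labels a replicate number is also a batch. Polysomal and total deviations of the same number correlated at 0.318 to 0.349 in H460 and 0.290 to 0.413 in A549, and those of different numbers at −0.306 to −0.0374. Deviations from a group mean cancel within the group, so positive values for the same number force negative ones elsewhere. The negative values are therefore no separate evidence for the pairing. Replicate libraries differed beyond sampling noise, with chi-square per degree of freedom of 9.53 or more. Alternatives used RLE size factors, DESeq2 1.42.0, limma 3.58.1, other filters, a block and left-out libraries. The test was also run on simulated counts, whose outcome is not given here. The simulation gave both lines the same spread, so it does not show how the test does with the larger spread in H460. Start sequences and gene positions are from RefSeq (GRCh38.p14), matched by symbol.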

Additional observations from a re-analysis of the deposited data

Results flagged for a closer look

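HNRNPUL2-BSCL2 was singled out because the test of the difference between the lines' ratios, the interaction of line and fraction, passed for it in siNT libraries. Its fitted difference of −10.09 ± 0.92 depends on the prior count, because all 3 H460 polysomal libraries were at 0, and is no bound. The division of reads between this read-through gene and its 2 neighbours was not tested.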

How the results depend on the processing

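The count of genes with a ratio higher in H460 (0) moved to 32 with no filter on low counts, 3 with DESeq2, 49 over both siRNAs with the replicate block and 10 with limma on ratios averaged by number, and leaving out 1 library or 1 pair gave 0 to 1. The count of lower genes (1) moved to 33, 7, 11 and 7 under the same 4 settings, to 3 with the replicate block, and to 0 with the stricter filter of 1 CPM in each group, with all 24 libraries and with limma on paired ratios, and leaving out gave 1 to 3. The stricter filter removed HNRNPUL2-BSCL2 itself. Genes called within H460 (4394) ranged from 2382 to 7211 and within A549 (3879) from 737 to 6488 when a library or a pair was left out. The lowest A549 count came without A549 pair 6 and the lowest H460 count without H460 pair 4. The stricter filter gave 5603 genes for the line difference in total RNA. For siRIC libraries the replicate block gave 4 higher and 1 lower. The three-way count was 0 with and without the block. Medians of ribosomal proteins, both oxidative phosphorylation groups, mitochondrial ribosomal proteins, proteasome, TOP factors and immediate early genes kept their sign under all 28 settings. So did those of other initiation and elongation factors, nuclear noncoding RNAs, endoplasmic reticulum chaperones, ATF4 targets, aminoacyl-tRNA synthetases, ribosome biogenesis and cytosolic chaperonins. Mitochondrially encoded mRNAs kept theirs under 27. Sphingolipid and HIF medians changed sign in 5 and 6. Of the 28 settings, 12 left out 1 library and 6 left out 1 pair. Leaving aside the fit over both siRNAs with the replicate block, 80 genes were called under some setting. Of these, 1, HERC3, was called in both directions, at −8.03 with no filter and at 8.86 without H460 total library 4. The largest shift of the median over all genes was to 0.067, with no filter. At the depth of these libraries, genes with a mean under 1 CPM had a median SE of 0.928, and 0.813% of them had a 95% interval within 1 log2 unit of 0. The causes were not tested.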

Other observations

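Among the tested genes, 250 pseudogenes had a median difference of the log2 ratio of 0.23 (H460 minus A549), 271 transcribed pseudogenes 0.14, 1035 long noncoding RNAs 0.098 and 13180 protein-coding genes −0.0034. In siRIC libraries the same medians were 0.17, 0.23, 0.059 and −0.027. Transcribed pseudogenes had a median log2 ratio of −0.68 in H460 and −0.89 in A549, and long noncoding RNAs −0.61 in H460 and −0.68 in A549.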
